A study of Mus musculus with 9 samples.

Results

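The genes described here form the SNARE and granule exocytosis machinery of mouse mast cells. They were chosen by symbol: all protein-coding genes named Stx, Stxbp, Vamp, Syt or Sytl with a number, together with Snap23, Snap25, Snap29, Vti1a, Vti1b, Napa, Nsf, Unc13d, Rab27a, Rab27b, Rab3a, Rab3d, Rab37, Cplx2 and the Scamp genes. The rule found 69 genes among 47643 rows of the count table. Of them 45 were among the 11560 genes tested, which had a median above 1 CPM (read counts relative to library size). The filter used unscaled CPM, and the levels below are CPM scaled by the trimmed mean of M values (TMM). Vamp7 and Scamp4 were not analysed here.

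RNA was sequenced from bone marrow-derived mast cells (BMMCs), primary cells of C57BL/6 mice grown from marrow for at least 4 weeks in medium conditioned by the IL-3-secreting line WEHI-3. There were 3 groups of 3 libraries: Control, IgE+BSA (cells given DNP-IgE and its antigen DNP-BSA) and IgE+BSA+Luteolin (the same stimulation with the plant flavone luteolin). The labels give luteolin at 10 μM for 24 h, in a protocol text shared by all samples, and the study's text describes the luteolin libraries once as pretreated and once as treated after stimulation, so their order is not settled here. No label says that replicates came from separate cultures or mice, so p-values measure the spread between these libraries, which may be technical.

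Mast cells store histamine, proteases and heparin in secretory granules and release them when antigen crosslinks IgE on FcεRI. The granule is carried to the plasma membrane by Rab GTPases and their effectors, tethered and primed there, and then fused by a SNARE complex, in which a VAMP on the granule zips with a syntaxin and a SNAP-25 family protein on the target membrane. Munc18 proteins (the Stxbp genes) hold and open the syntaxins, synaptotagmins sense calcium in many secretory cells, and NSF with alpha-SNAP takes spent complexes apart.

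Counts on genes ranged from 9515004 (Control 2) to 24605689 per library, so that a reading of 3 counts was worth 0.121 to 0.291 CPM. The machinery took 0.346% to 0.413% of each library. All 11 mast cell markers were tested, with a summed level of 55161 to 83836 CPM, while 4 B and T cell markers, 3 fibroblast markers and 4 neuronal markers summed to at most 1.30 CPM in any library, with Cd3e at 0 in all 9. Of 6 macrophage markers 3 were tested, with sums of 216 to 229.8 CPM in Control, 255 to 278 in IgE+BSA and 261 to 284 in IgE+BSA+Luteolin. Adgre1 made up most of these sums at 202 to 259 CPM, with Cd14 at 6.84 to 20.9 and Csf1r at 4.62 to 10.3. The untested C1qa, C1qb and Mrc1 read at most 0.04, 0.453 and 0.659 CPM. Control 1 stood apart from the other Control libraries. The chi-square per degree of freedom of its counts was 88.1 against Control 2 and 146 against Control 3, compared with 4.05 to 15.2 for the other replicate pairs. The 5 neutrophil markers summed to 5.48 to 239.7 CPM in Control, 171 to 188 in IgE+BSA and 198 to 228 in IgE+BSA+Luteolin. S100a9, a neutrophil calprotectin subunit, read 105, 0.969 and 0.907 CPM in Control 1, 2 and 3, and the mast cell protease Mcpt4 read 1752, 201 and 197 CPM. In both genes Control 1 lay near the other 6 libraries, while Control 2 and 3 were low. Each comparison with Control is therefore given with and without Control 1, and the part of these marker differences in the results was not tested. In bulk RNA, fewer cells of a type and less RNA per cell cannot be told apart.

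The expressed machinery was led by the partners known for granule fusion in blood cells. On the scale of CPM per kb of exon, Snap23, the ubiquitous relative of the neuronal SNAP-25, stood at 69.7 ± 20.7 in Control, 78.2 ± 1.02 in IgE+BSA and 67.8 ± 2.99 in IgE+BSA+Luteolin (mean ± SD, n = 3 in each group here and below). Rab37, a Rab of mast cell secretory granules, stood at 71.0 ± 5.93, 58.9 ± 1.73 and 72.1 ± 1.54 CPM per kb. Vamp8, an R-SNARE of endosomes and granules, stood at 59.2 ± 17.4, 54.5 ± 3.36 and 63.0 ± 5.62 CPM per kb. These genes and Stxbp2 formed the top of the order, and their ranges overlapped in Control.

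Stxbp2 (Munc18-2), the syntaxin partner lost in a form of familial hemophagocytic lymphohistiocytosis, stood at 53.0 ± 1.17 CPM per kb in IgE+BSA. Unc13d (Munc13-4), the priming factor of lytic granules, stood at 41.1 ± 0.243, and Rab27b, which docks granules, at 45.2 ± 4.64. Among syntaxins Stx4a, of the plasma membrane, was highest at 34.9 ± 2.57 CPM per kb, ahead of Stx7, of late endosomes, at 24.9 ± 0.723. Stx12 followed at 16.5 ± 1.07 and Stx3, of granules and apical membranes, at 14.4 ± 0.529. Stxbp6, Stxbp4 and the complexin Cplx2, which clamps SNARE complexes in neurons, were lowest of the 45, each with a group mean under 1 CPM per kb. Levels per kb use the merged exons of the GENCODE M21 annotation and carry its choice of transcripts.

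**Figure D1:**
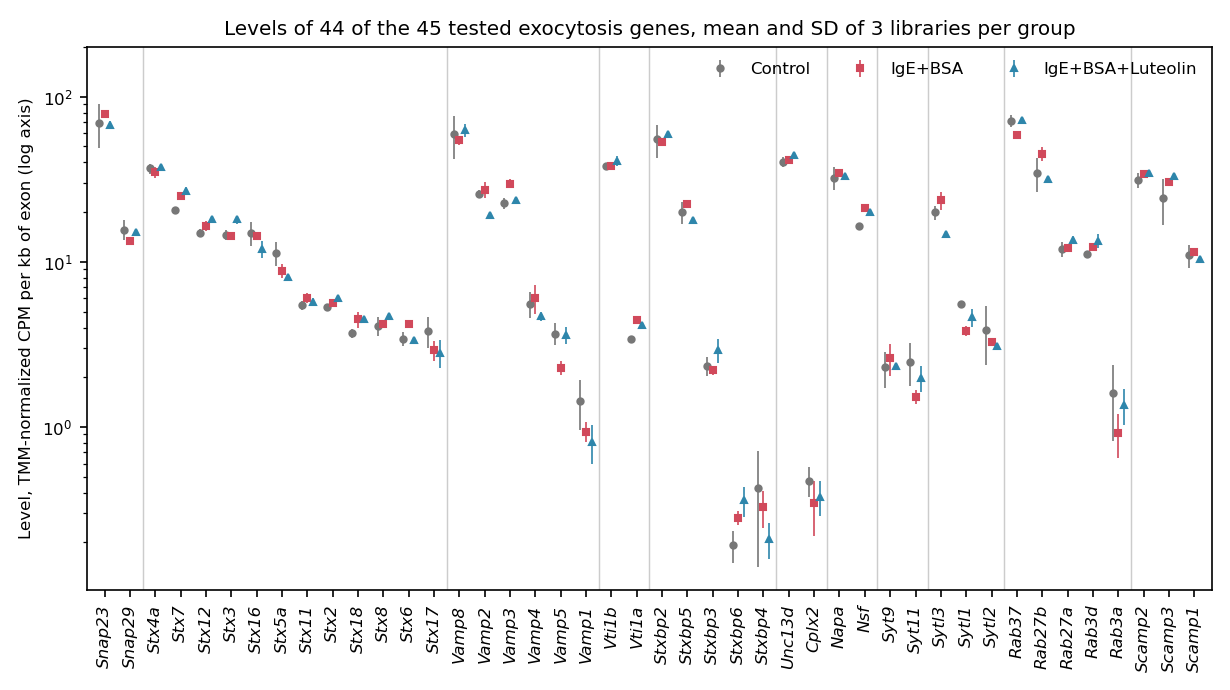
Level of 44 of the 45 tested genes in CPM per kb of exon on a log axis, with points for the mean and bars for the SD of the 3 libraries in each group, arranged by family and within a family by level. Snap23, Rab37, Vamp8 and Stxbp2 lie highest and Stxbp4, Stxbp6 and Cplx2 lowest, and the Control bars are often the longest.

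Of the 24 genes that did not pass, 15 were synaptotagmins, so that Syt9 and Syt11 were the 2 of 17 members of that family that were tested. Others were Snap25, Stx1a, Stx19, Stxbp5l, Sytl4, Sytl5, Vamp9 and Scamp5. Stx1a and Snap25 belong to the fusion complex of neurons, and their highest levels were 0.326 and 0.0452 CPM. Syt1, Syt4, Syt6, Syt10, Syt14, Stxbp5l and Vamp9 had 0 counts in all 9 libraries, which allows a level of up to 0.121 to 0.291 CPM depending on the library. Syt2 and Syt3, both described in mast cell lines, reached at most 0.242 and 1.02 CPM. Such limits cover counting error only. Of all untested genes Syt5 read highest, at 1.55 CPM in 1 library. Syt9, the better measured granule candidate, stood at 6.57, 9.98 and 10.8 CPM in Control, 12.1, 7.80 and 11.4 in IgE+BSA and 9.23, 9.31 and 9.18 in IgE+BSA+Luteolin, with overlapping groups (luteolin against IgE+BSA: log2 fold change -0.17, SE 0.15, edgeR adjusted p = 0.393).

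Luteolin was compared with stimulation alone to see which genes of the machinery differed when the flavone was present. Between IgE+BSA+Luteolin and IgE+BSA, 16 of 45 genes passed an adjusted p of 0.05 in edgeR's quasi-likelihood test, or 35.6% against 40.0% of all tested genes. Lower in luteolin were 10 genes (22.2%, against 21.9% of all), and higher were 6 (13.3%, against 18.1% of all). These shares lie near the background, and the median log2 fold change was 0.02 both over the 45 genes and over all 11560. Among the lower genes were Sytl3, Vamp2, Rab27b, Vamp4, Vamp3, Stxbp5, Stx6, Stx16 and Snap23, and the higher genes were Vamp5, Stxbp3, Stx3, Rab37, Vamp8 and Stxbp2. The split depends on the scaling. With library size alone 19 were higher and 6 lower (55.6%, against 48.7% of all genes called), while the median of all genes shifted to 0.13, and with upper-quartile factors 18 were higher and 6 lower (53.3%, against 45.7% of all), with a median of 0.093. A fit over all 9 libraries, which takes in the spread of Control, called 2 higher (Vamp5 and Stx3) and 3 lower (Sytl3, Vamp2 and Vamp3), or 11.1% against 9.46% of all genes.

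Of the called genes only Sytl3 (lower) and Vamp5 (higher) stood past 1.5-fold. The share of all tested genes called past 1.5-fold was not counted. In the same libraries the summed mast cell markers read 58997 to 65832 CPM in IgE+BSA and 70520 to 81714 in IgE+BSA+Luteolin, and the 3 basophil markers 1446 to 1504 and 1610 to 1754. The mast cell sum is dominated by Cpa3 and Tpsb2, and single markers went both ways: of the 11, 6 were higher in every luteolin library than in any IgE+BSA library, 4 were lower in every one, and Gata2 overlapped. Tpsab1, a tryptase gene, read 469 to 611 CPM in IgE+BSA and 218 to 219 with luteolin. Hdc, the gene of the enzyme that makes histamine, read 715 to 966 CPM in IgE+BSA and 360 to 390 with luteolin. Kit and Mitf were the other lower markers. The part of these marker differences in the results was not tested.

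**Figure D2:**
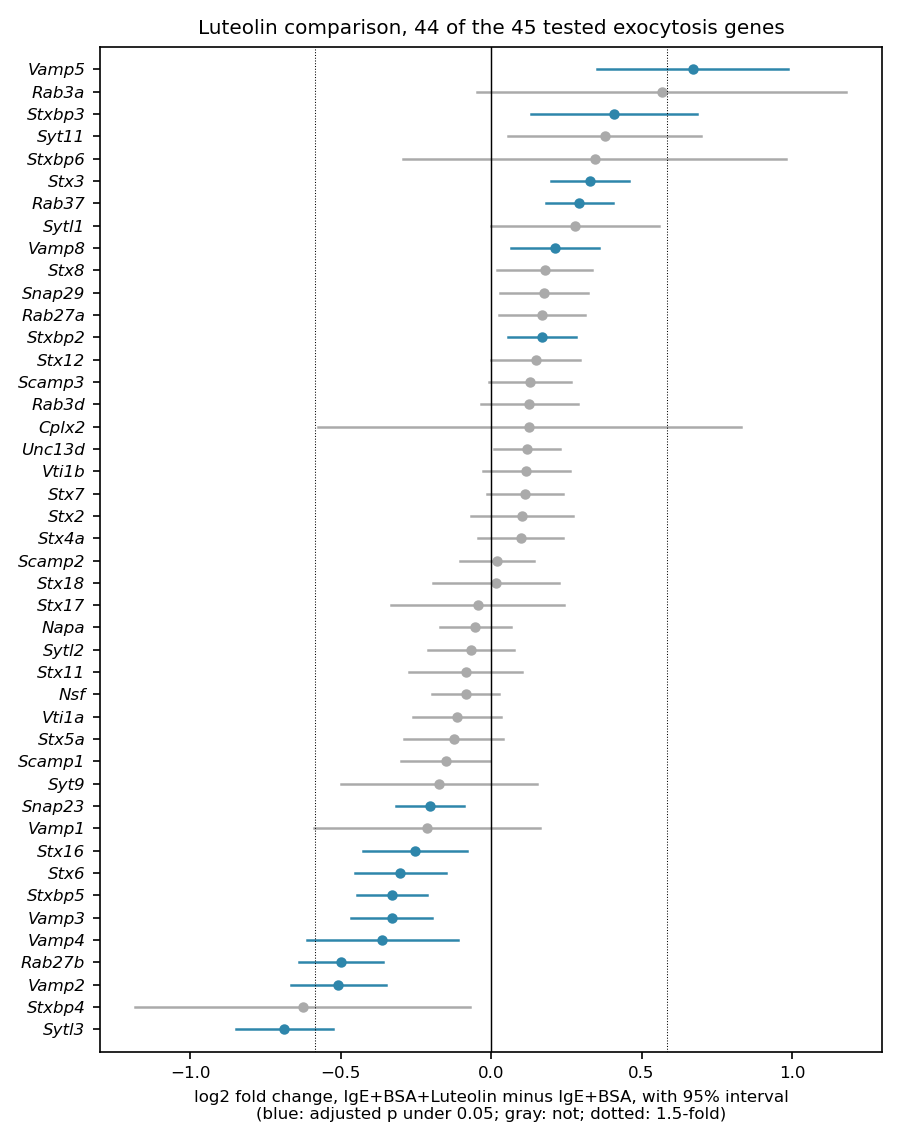
Log2 fold change of IgE+BSA+Luteolin over IgE+BSA for 44 of the 45 tested genes, with points for the estimate and bars for the 95% interval from edgeR. Blue marks 15 of the 16 genes with an adjusted p under 0.05, which run from -0.69 (Sytl3) to 0.67 (Vamp5), and dotted lines mark a 1.5-fold change.

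Among the tested Rab and Sytl genes Sytl3 and Rab27b were lower, Rab37 was higher and the other 5 did not pass, beside 40.0% of all tested genes called. Sytl3 (ENSMUSG00000041831, chr17:6659093-6738044, plus strand, GRCm38), which encodes a synaptotagmin-like effector that binds Rab27, read 114, 108 and 137 CPM in IgE+BSA, 74.7, 72.1 and 75.5 in IgE+BSA+Luteolin and 89.2, 107 and 107 in Control. All luteolin libraries lay below all others. It fell by 37.9% with luteolin (log2 fold change -0.69, SE 0.076, edgeR adjusted p = 2.13e-06), the largest fall among the called genes. Rab27b (ENSMUSG00000024511, chr18:69979131-70141605, minus strand), one of 2 Rab27 GTPases and the one that docks mast cell granules at the plasma membrane, read 493, 429 and 526 CPM in IgE+BSA, 338, 335 and 349 in IgE+BSA+Luteolin and 270.2, 434 and 404 in Control. The luteolin libraries lay close together and below the IgE+BSA libraries, while Control 1 was lowest of all. Rab27b fell by 29.2% (log2 fold change -0.50, SE 0.066, edgeR adjusted p = 1.66e-05).

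Its paralog Rab27a (ENSMUSG00000032202, chr9:73044854-73097629, plus strand), which links granules to the actin cortex, went the other way without passing the threshold. It read 47.7, 47.4 and 46.1 CPM in IgE+BSA and 52.4, 55.4 and 50.6 in IgE+BSA+Luteolin (log2 fold change 0.17, SE 0.068, edgeR adjusted p = 0.0562, 95% interval 0.026 to 0.31), and a pseudogene on the same strand, Gm27186, covers 3.8% of its exons. Rab37 (ENSMUSG00000020732, chr11:115091431-115162236, plus strand) read 309, 325 and 309 CPM in IgE+BSA, 384, 393 and 376 in IgE+BSA+Luteolin and 342, 398 and 396 in Control. It rose by 22.6% with luteolin (log2 fold change 0.29, SE 0.053, edgeR adjusted p = 0.000365) and then lay next to Control 2 and 3.

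Rab3d, a GTPase on mast cell granules, read 52.2, 53.5 and 49.5 CPM in IgE+BSA and 57.9, 60.6 and 50.6 in IgE+BSA+Luteolin (log2 fold change 0.13, SE 0.076, edgeR adjusted p = 0.193). Its neuronal relative Rab3a, near the filter, read 1.81, 2.75 and 1.61 CPM in IgE+BSA and 3.91, 2.59 and 2.61 in IgE+BSA+Luteolin (log2 fold change 0.57, SE 0.29, edgeR adjusted p = 0.131). The groups overlapped in both, and neither passed. The other tested Rab27 effectors, Sytl1 and Sytl2, did not pass either. Sytl1 read 9.45, 10.3 and 9.12 CPM in IgE+BSA and 11.2, 13.2 and 10.5 in IgE+BSA+Luteolin (edgeR adjusted p = 0.102). Sytl2 read 45.8, 45.8 and 44.2 CPM in IgE+BSA and 43.1, 44.1 and 42.3 in IgE+BSA+Luteolin (edgeR adjusted p = 0.458).

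The VAMP genes encode the SNAREs on the granule side. Of 6 tested, 3 were lower and 2 higher, beside 40.0% of all tested genes called, and whether the family differed from other genes was not tested. Vamp2 (ENSMUSG00000020894, chr11:69088490-69092384, plus strand), the synaptobrevin of neurons and endocrine cells, read 103, 92.7 and 117 CPM in IgE+BSA, 69.6, 74.0 and 76.0 in IgE+BSA+Luteolin and 93.1, 97.4 and 104 in Control. As for Sytl3, no luteolin library reached the lowest library of the other groups. Vamp2 fell by 29.6% (log2 fold change -0.51, SE 0.075, edgeR adjusted p = 5.56e-05). Vamp3 (ENSMUSG00000028955, chr4:151047300-151057963, minus strand), cellubrevin of recycling endosomes, read 91.8, 81.7 and 83.7 CPM in IgE+BSA, 66.2, 68.2 and 69.7 in IgE+BSA+Luteolin and 60.0, 66.3 and 70.2 in Control. Here the IgE+BSA libraries stood above the rest, and luteolin libraries lay at the level of Control. Vamp3 fell by 20.5% (log2 fold change -0.33, SE 0.063, edgeR adjusted p = 0.000626). Vamp4, of the trans-Golgi network, fell by 22.2% (log2 fold change -0.36, SE 0.12, edgeR adjusted p = 0.0232), on readings of 28.0, 21.8 and 32.8 CPM in IgE+BSA and 20.0, 22.5 and 21.7 in IgE+BSA+Luteolin. Its groups overlapped, since IgE+BSA 2 lay among the luteolin libraries, and without luteolin 1, IgE+BSA 1 or IgE+BSA 3 it did not pass (log2 fold change -0.35 to -0.22, edgeR adjusted p = 0.0805 to 0.142), nor with library size alone or upper-quartile factors.

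Vamp8 (ENSMUSG00000050732, chr6:72385223-72390703, minus strand), the VAMP that mast cell degranulation is known to need, read 121, 135 and 122 CPM in IgE+BSA, 154, 152 and 131 in IgE+BSA+Luteolin and 182, 123 and 105 in Control. The groups touched, since luteolin 3 lay below IgE+BSA 2, and Control 1 was the highest of all libraries. Vamp8 rose by 15.8% (log2 fold change 0.21, SE 0.07, edgeR adjusted p = 0.0235), a call lost without luteolin 1 or 2 or IgE+BSA 1 or 3 (log2 fold change 0.16 to 0.19, edgeR adjusted p = 0.0615 to 0.139). Vamp5 (ENSMUSG00000073002, chr6:72368794-72380468, minus strand), first known from muscle, read 5.97, 5.75 and 6.83 CPM in IgE+BSA, 10.0, 10.8 and 8.56 in IgE+BSA+Luteolin and 10.0, 11.4 and 8.41 in Control. All IgE+BSA libraries lay below all others. Vamp5 rose by 59.0% (log2 fold change 0.67, SE 0.15, edgeR adjusted p = 0.00218). Vamp1, the remaining VAMP, read 9.67, 8.15 and 10.7 CPM in IgE+BSA and 7.92, 6.23 and 10.5 in IgE+BSA+Luteolin, with overlapping groups (edgeR adjusted p = 0.355).

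Vamp5 and Vamp8 are neighbours on chromosome 6, both on the minus strand with 4754 bp between them, and both were higher with luteolin. The 250 bases before each start are shown for this pair, for Sytl3 as the gene with the largest fall, and for Stxbp2 as an abundant regulator of the SNAREs (RefSeq, GRCm38.p6, written 5′ to 3′ along the gene). The starts are those of RefSeq and not of the gene spans given here, and lie 154 bases inside the span of Stxbp2 and 36 inside that of Vamp8. Capitals mark matches to any of 8 motifs searched on both strands. The E-box was searched as CACGTG, the M-box core known to bind MITF as TCATGTG and the GATA motif as GATAAG. The AP-1 motif was searched as TGANTCA and the cyclic AMP element (CRE) as TGACGTCA. The ETS motif was searched as CCGGAAG, the EGR motif as GCGNGGGCG and the NF-kB motif as GGGANTTTC.
Vamp5, chr6:72380469-72380718, minus strand: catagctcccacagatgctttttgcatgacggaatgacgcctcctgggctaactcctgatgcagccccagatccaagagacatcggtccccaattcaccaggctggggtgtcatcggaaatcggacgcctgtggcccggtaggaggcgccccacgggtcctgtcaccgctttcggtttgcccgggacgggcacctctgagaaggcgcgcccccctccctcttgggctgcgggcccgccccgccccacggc
Vamp8, chr6:72390668-72390917, minus strand: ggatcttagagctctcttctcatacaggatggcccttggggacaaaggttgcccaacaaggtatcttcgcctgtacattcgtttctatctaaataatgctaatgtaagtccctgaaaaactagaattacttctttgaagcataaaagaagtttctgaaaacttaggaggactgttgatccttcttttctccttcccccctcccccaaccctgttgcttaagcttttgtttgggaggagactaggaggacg
Sytl3, chr17:6658809-6659058, plus strand: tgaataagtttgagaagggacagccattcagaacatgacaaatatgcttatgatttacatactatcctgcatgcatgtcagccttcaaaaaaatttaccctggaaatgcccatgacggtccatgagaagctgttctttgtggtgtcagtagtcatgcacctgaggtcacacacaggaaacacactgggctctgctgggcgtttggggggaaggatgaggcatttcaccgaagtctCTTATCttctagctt
Stxbp2, chr8:3630859-3631108, plus strand: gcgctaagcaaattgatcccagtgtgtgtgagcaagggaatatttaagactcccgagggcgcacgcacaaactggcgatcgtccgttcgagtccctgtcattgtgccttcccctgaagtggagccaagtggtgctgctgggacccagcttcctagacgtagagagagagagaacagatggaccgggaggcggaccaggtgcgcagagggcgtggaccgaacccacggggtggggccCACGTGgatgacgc
The windows of the neighbours differed in base composition, with 66.0% G and C before Vamp5 and 43.6% before Vamp8, and neither held a match. Before Sytl3 stood CTTATC, the reverse complement of the GATA motif, 15 bases ahead of the RefSeq start, and in the Stxbp2 window stood CACGTG 14 bases ahead of the RefSeq start, inside the GENCODE gene span. Over the same 250 bases of all 32851 promoters, 6.55% held the GATA motif and 6.02% the E-box, and the other motifs were held by 3.25% (M-box core), 6.75% (AP-1), 1.55% (CRE), 6.91% (ETS), 4.70% (EGR) and 0.941% (NF-kB). A match is a description of letters and not of binding. Of the 16 called genes, 11 had an entry in this table, and among those not printed the E-box stood before Stx6 and 1 of 2 Vamp4 starts, the CRE before Stxbp3, and the EGR motif before Stxbp5 and the other Vamp4 start.

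Of the target membrane SNAREs, Stx3 was higher with luteolin and Snap23, Stx6 and Stx16 lower, and the plasma membrane syntaxin gene Stx4a did not pass. Snap23 (ENSMUSG00000027287, chr2:120567671-120601255, plus strand), which mast cells use for granule fusion, read 337, 331 and 339 CPM in IgE+BSA, 277, 293 and 302 in IgE+BSA+Luteolin and 197, 355 and 346 in Control. The stimulated groups did not overlap, and Control 1 was far below the other Control libraries. Snap23 fell by 13.1% with luteolin (log2 fold change -0.20, SE 0.054, edgeR adjusted p = 0.00694), and did not pass with library size alone or upper-quartile factors (log2 fold change -0.090 and -0.13). Stx3 (ENSMUSG00000041488, chr19:11775118-11819403, minus strand) read 79.2, 82.3 and 85.2 CPM in IgE+BSA, 109, 97.1 and 103 in IgE+BSA+Luteolin and 76.4, 85.7 and 87.8 in Control. Its luteolin libraries lay above all 6 others. Stx3 rose by 25.5% (log2 fold change 0.33, SE 0.062, edgeR adjusted p = 0.00054).

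Stx6 and Stx16 encode syntaxins of the trans-Golgi and endosomal route. They and Vamp4 are named because they passed, after their values were seen. Stx6 read 42.5, 44.3 and 46.3 CPM in IgE+BSA and 35.6, 35.6 and 36.6 in IgE+BSA+Luteolin and fell by 18.9% (log2 fold change -0.30, SE 0.072, edgeR adjusted p = 0.00331). Stx16 read 55.3, 54.5 and 59.4 CPM in IgE+BSA and 44.3, 43.8 and 53.7 in IgE+BSA+Luteolin and fell by 16.1% (log2 fold change -0.25, SE 0.081, edgeR adjusted p = 0.0206). The call of Stx16 was lost without luteolin 1 or 2 or IgE+BSA 1 or 3 (log2 fold change -0.27 to -0.20, edgeR adjusted p = 0.0536 to 0.107) and with library size alone or upper-quartile factors.

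Stx4a (ENSMUSG00000030805, chr7:127824294-127849019, plus strand), the plasma membrane syntaxin tied to degranulation, read 76.2, 83.2 and 88.3 CPM in IgE+BSA, 93.3, 84.7 and 86.5 in IgE+BSA+Luteolin and 93.9, 82.8 and 84.2 in Control. Its groups overlapped (log2 fold change 0.098, SE 0.067, edgeR adjusted p = 0.258, 95% interval -0.044 to 0.24). The remaining 8 tested syntaxins did not pass, with log2 fold changes between -0.13 (Stx5a) and 0.18 (Stx8). Snap29, which serves many membranes, read 47.9, 45.8 and 44.7 CPM in IgE+BSA and 54.7, 50.1 and 51.3 in IgE+BSA+Luteolin (edgeR adjusted p = 0.0518).

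**Figure D3:**
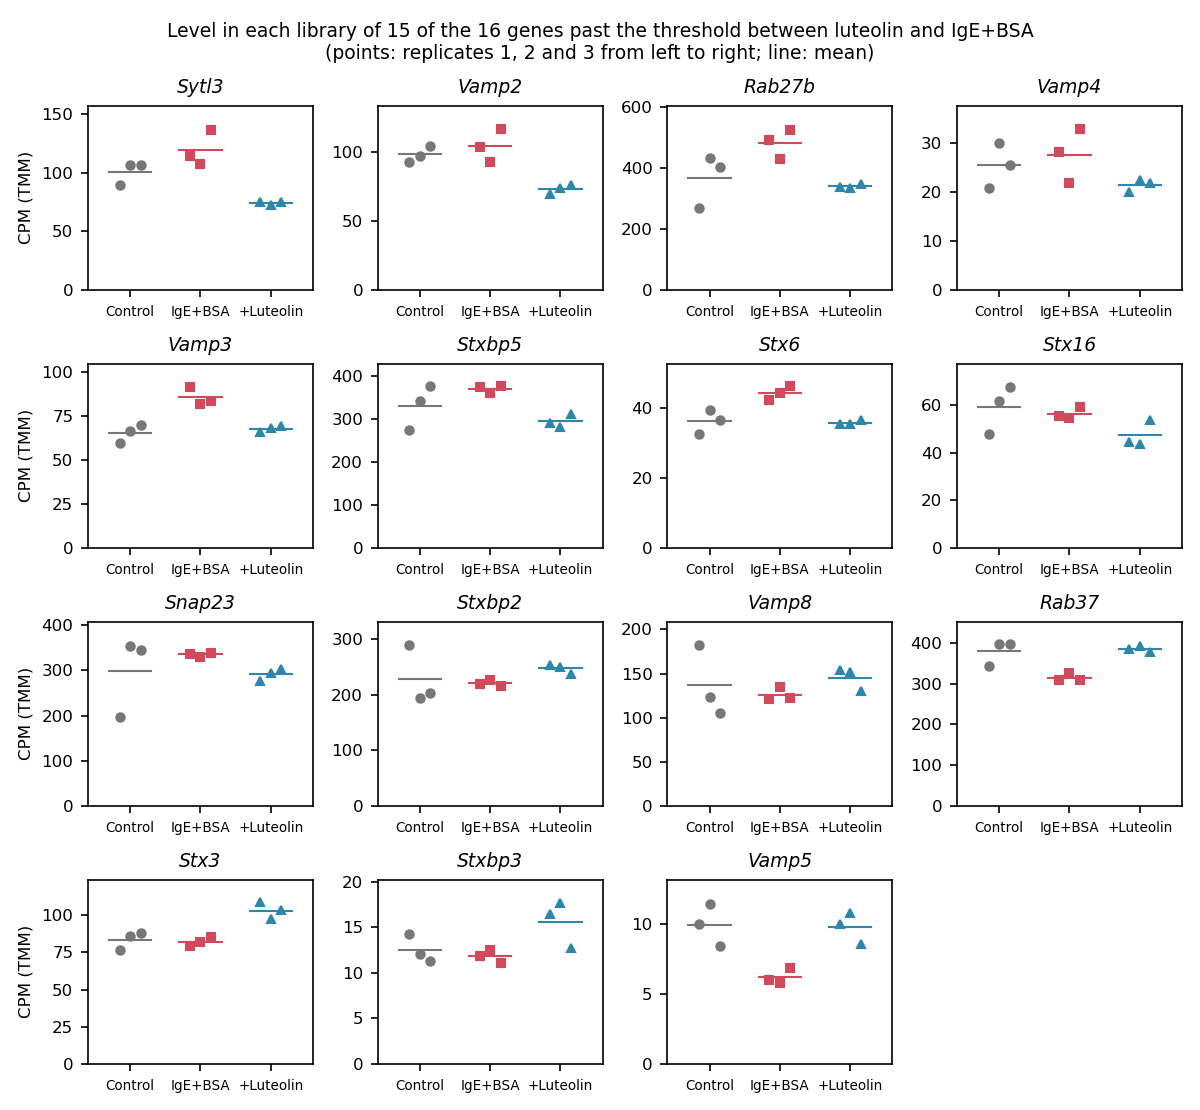
TMM-normalized CPM in each library for 15 of the 16 genes past the threshold between IgE+BSA+Luteolin and IgE+BSA, with a panel per gene ordered from the lowest to the highest log2 fold change, an axis from 0, points for replicates 1 to 3 and a line for the group mean. The luteolin points are low in Sytl3, Vamp2 and Rab27b and high in Vamp5, Stxbp3 and Stx3, and Control 1 lies away from Control 2 and 3 in Rab27b, Snap23, Stxbp2 and Vamp8.

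Stxbp2, Stxbp3 and Stxbp5, which encode regulators of the SNAREs, passed, the first pair higher and Stxbp5 lower, while Unc13d, Cplx2, Nsf and Napa did not. Stxbp2 (ENSMUSG00000004626, chr8:3630955-3643644, plus strand), the partner of Stx3 and Stx11, read 219, 226 and 216 CPM in IgE+BSA, 254, 250.3 and 237 in IgE+BSA+Luteolin and 290.1, 194 and 203 in Control. The stimulated groups did not overlap, and Control spanned both. Stxbp2 rose by 12.4% (log2 fold change 0.17, SE 0.054, edgeR adjusted p = 0.0202). Stxbp3 (ENSMUSG00000027882, chr3:108793176-108840526, minus strand), the partner of plasma membrane syntaxins, read 11.8, 12.5 and 11.0 CPM in IgE+BSA, 16.5, 17.6 and 12.7 in IgE+BSA+Luteolin and 14.3, 12.0 and 11.3 in Control. Its lowest luteolin library lay just above the highest IgE+BSA library. Stxbp3 rose by 32.8% (log2 fold change 0.41, SE 0.13, edgeR adjusted p = 0.0198). Both calls were lost without luteolin 1 or 2 or IgE+BSA 1 or 3, with a log2 fold change of 0.14 to 0.16 for Stxbp2 (edgeR adjusted p = 0.0665 to 0.103) and 0.31 to 0.41 for Stxbp3 (edgeR adjusted p = 0.0589 to 0.13).

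Stxbp5 (ENSMUSG00000019790, chr10:9755547-9901079, minus strand), tomosyn, which competes with VAMPs for the syntaxin complex, read 373, 359.9 and 376 CPM in IgE+BSA, 289, 282 and 310.4 in IgE+BSA+Luteolin and 275, 341 and 375 in Control. The stimulated groups did not overlap. Stxbp5 fell by 20.4% (log2 fold change -0.33, SE 0.055, edgeR adjusted p = 0.000195).

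Unc13d (ENSMUSG00000057948, chr11:116062095-116077961, minus strand) read 191, 194 and 192 CPM in IgE+BSA, 209, 212 and 203 in IgE+BSA+Luteolin and 204, 176 and 188 in Control. Its difference did not pass (log2 fold change 0.12, SE 0.052, edgeR adjusted p = 0.0798), and its unadjusted interval ran from 0.0083 to 0.23. Cplx2 read 2.35, 1.10 and 1.66 CPM in IgE+BSA and 1.35, 2.06 and 2.18 in IgE+BSA+Luteolin, with a wide interval of -0.57 to 0.83 (edgeR adjusted p = 0.79).

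Nsf, the ATPase that takes SNARE complexes apart, read 179.8, 178 and 173 CPM in IgE+BSA and 167, 164 and 168 in IgE+BSA+Luteolin. Napa, its adaptor alpha-SNAP, read 129, 126 and 136 CPM in IgE+BSA and 124, 129 and 123 in IgE+BSA+Luteolin. Neither passed, and their 95% intervals of -0.20 to 0.026 (Nsf) and -0.17 to 0.066 (Napa) on the log2 scale lie within a 1.5-fold change. Scamp1 and Scamp2 encode carrier proteins of the secretory route. Scamp1 read 54.9, 54.0 and 49.5 CPM in IgE+BSA and 49.0, 45.1 and 48.2 in IgE+BSA+Luteolin (edgeR adjusted p = 0.097), and Scamp2 read 104, 113 and 113 CPM and 112, 113 and 108 in the same order (edgeR adjusted p = 0.82).

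The makeup of some families was described by each gene's share of its family's CPM per kb in a library. No test was applied to the shares. Vamp8 held 43.3, 49.2 and 42.9 percent of the VAMP sum in the IgE+BSA libraries, 57.1, 55.6 and 51.6 percent with luteolin and 59.2, 46.6 and 42.3 percent in Control. The mean share was 45.1% ± 3.48 in IgE+BSA, 54.7% ± 2.86 in IgE+BSA+Luteolin and 49.3% ± 8.78 in Control, and the stimulated groups did not overlap. Vamp2 held 22.6% ± 2.17 in IgE+BSA, 16.8% ± 1.31 in IgE+BSA+Luteolin and 22.1% ± 3.56 in Control, and Vamp3 24.6% ± 1.58, 20.5% ± 1.31 and 19.4% ± 3.54. Among the VAMP genes analysed here, Vamp8 thus led in every library, with Vamp2 and Vamp3 behind it. Vamp7 is not part of the VAMP sum, so the shares and this order leave it out.

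Rab27b held 79.0, 76.7 and 80.6 percent of the Rab27 sum in IgE+BSA, 70.1, 68.7 and 71.5 percent in IgE+BSA+Luteolin and 70.8, 76.0 and 75.2 percent in Control. Its luteolin libraries lay below the IgE+BSA libraries by more than the spread within either group. Rab3d made up 87.8% ± 4.86, 93.1% ± 1.67 and 90.8% ± 1.95 of the sum of Rab3a and Rab3d in Control, IgE+BSA and IgE+BSA+Luteolin.

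**Figure D4:**
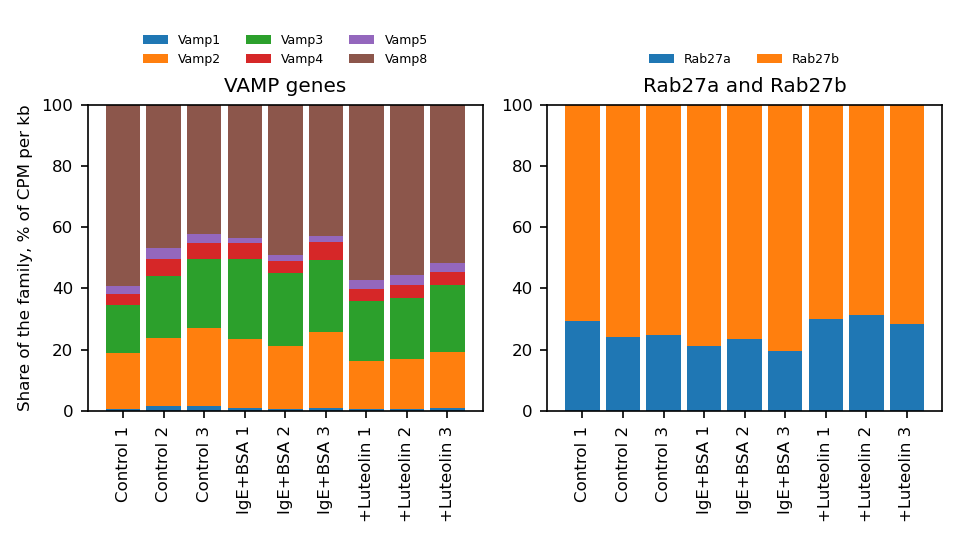
Share of each gene in its family's summed CPM per kb, in percent, for VAMP genes and Rab27 genes, with a stacked bar for each of the 9 libraries. The Vamp8 share runs from 42.3% (Control 3) to 59.2% (Control 1), and the Rab27a share is above 28% in all luteolin libraries and under 24% in all IgE+BSA libraries.

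The comparison of IgE+BSA with Control asks what stimulation changed. By edgeR 0 of the 45 genes passed, against 3.27% of all tested genes. The lowest adjusted p was 0.0823 (Sytl1, edgeR). DESeq2 on the same libraries called 3 higher and 2 lower, and a fit over all 9 libraries also 3 higher and 2 lower, with Nsf and Vamp3 among the higher and Vamp5 among the lower genes in both. These 11.1% lie near the 10.6% (DESeq2) and 9.56% (all 9 libraries) of all genes called in the same fits. Sytl1, a Rab27 effector, read 14.0, 14.1 and 14.0 CPM in Control and 9.45, 10.3 and 9.12 in IgE+BSA (log2 fold change -0.54, SE 0.13, edgeR adjusted p = 0.0823). Vamp5 read on average 9.95 ± 1.51 CPM in Control and 6.18 ± 0.570 in IgE+BSA (log2 fold change -0.68, SE 0.18, edgeR adjusted p = 0.0956). Vamp3 read on average 65.5 ± 5.15 and 85.7 ± 5.35 CPM (log2 fold change 0.39, SE 0.11, edgeR adjusted p = 0.107). In each of these genes the libraries of the groups did not overlap. Without Control 1, 6 genes were higher, or 13.3% against 22.6% of all tested genes, and 11 lower, or 24.4% against 22.4% of all. The log2 fold change without it was 0.28 (edgeR adjusted p = 0.00906) for Vamp3, -0.70 (edgeR adjusted p = 0.0068) for Vamp5 and 0.30 (edgeR adjusted p = 0.00223) for Nsf. For Rab37 it was -0.39 (edgeR adjusted p = 0.000304), and for Sytl2 -0.60 (edgeR adjusted p = 2.13e-05).

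Several core granule genes did not pass between IgE+BSA and Control with or without Control 1. Without Control 1 the log2 fold change was 0.032 (edgeR adjusted p = 0.716) for Unc13d, 0.1 (edgeR adjusted p = 0.347) for Vamp8, -0.066 (edgeR adjusted p = 0.506) for Stx4a, 0.10 (edgeR adjusted p = 0.227) for Stxbp2 and -0.11 (edgeR adjusted p = 0.178) for Snap23. With all Control libraries the 95% interval of Snap23 was -0.33 to 0.66 and that of Vamp8 -0.61 to 0.36, which leaves room for changes in both directions.

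Against Control, IgE+BSA+Luteolin gave 0 calls among the 45 genes by edgeR, compared with 3.04% of all tested genes. Its lowest adjusted p was 0.0704 (Vamp2, edgeR). DESeq2 called 2 higher and 3 lower, as did the fit over all 9 libraries, and these 11.1% lie near the 11.9% and 10.8% of all genes called in the same fits. The comparisons share libraries, so the values are given side by side and not as separate evidence. Vamp2 stood at 98.3 ± 5.67 CPM in Control, 104 ± 12.0 in IgE+BSA and 73.2 ± 3.25 in IgE+BSA+Luteolin, with a log2 fold change of 0.084 for stimulation and -0.43 for luteolin with stimulation over Control. Sytl3 stood at 101 ± 10.0, 119.6 ± 15.3 and 74.1 ± 1.76 CPM, with 0.25 and -0.45 in the same order. In both genes the luteolin libraries were lower than Control as well as lower than IgE+BSA.

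Vamp5 showed another order, at -0.68 for IgE+BSA over Control and -0.019 for IgE+BSA+Luteolin over Control, as did Vamp3 at 0.39 and 0.051 and Rab37 at -0.27 and 0.017. Their luteolin libraries overlapped the Control libraries. Without Control 1, 16 genes were higher than Control, or 35.6% against 29.9% of all tested genes, and 14 lower, or 31.1% against 30.1% of all. Values without it were -0.47 (edgeR adjusted p = 3.73e-05) for Vamp2, -0.53 (edgeR adjusted p = 6.35e-06) for Sytl3, 0.35 (edgeR adjusted p = 0.00249) for Vamp8, 0.31 (edgeR adjusted p = 0.000958) for Stxbp2 and 0.24 (edgeR adjusted p = 0.0111) for Stx3. Rab27b then read -0.31 (edgeR adjusted p = 0.000792) and Snap23 -0.28 (edgeR adjusted p = 0.00196).

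The Control libraries themselves differed in this machinery. Control 1 departed from the mean of Control 2 and 3 by over 0.5 on the log2 scale in 15 of the 45 genes, and in 43.0% of all tested genes, whereas Control 2 departed from Control 3 in 1 gene, Stxbp4, and in 6.91% of all. Lower in Control 1 were Snap23 at 197 CPM against 355 and 346, Rab27b at 270.2 against 434 and 404, and Sytl2 at 29.6 against 65.7 and 67.4. Higher in Control 1 were Vamp8 at 182 CPM against 123 and 105, Stxbp2 at 290.1 against 194 and 203, and Scamp3 at 74.1 against 43.0 and 47.6. An antisense transcript, Gm16069, overlaps 11.1% of the Scamp3 exons, and strand use in the counting is not given in the sources used here. The same limit holds for Stx18, of which Gm42858 and Nsg1 cover 19.8% and 12.5%. None of the 16 genes called between the stimulated groups shares more than 0.1% of its exons with another gene.

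**Figure D5:**
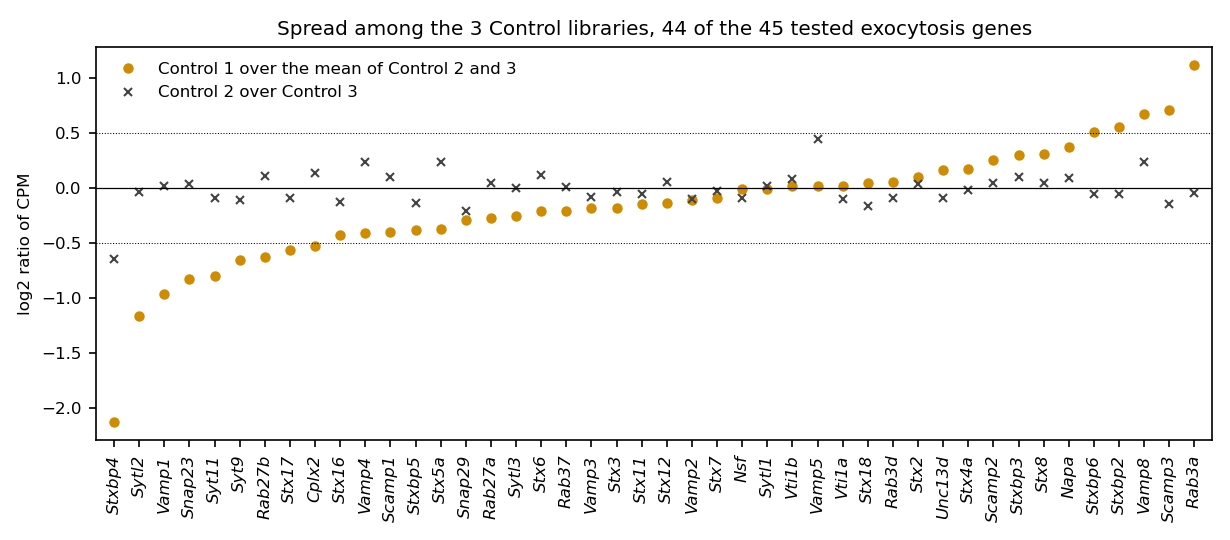
Log2 ratio of CPM of Control 1 over the mean of Control 2 and 3 (circles) and of Control 2 over Control 3 (crosses) for 44 of the 45 tested genes, ordered by the first ratio, with dotted lines at 0.5 in both directions. Circles run from -2.13 (Stxbp4) to 1.12 (Rab3a), and all crosses but that of Stxbp4 stay between the dotted lines.

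Other genes of exocytosis were taken from a list of 94 covering SNAREs of other routes, Vps33 and HOPS proteins, the exocyst, priming and Rab effectors, granule traffic and calcium or lipid regulators, of which 77 were tested. Between IgE+BSA+Luteolin and IgE+BSA 7 were higher (9.09%, against 18.1% of all tested genes) and 14 lower (18.2%, against 21.9% of all), with a median log2 fold change of 0.024 beside 0.02 over all genes. With library size alone 26 were higher and 7 lower, or 42.9% against 48.7% of all genes, whose median then shifted to 0.13. Called past 1.5-fold were 3, all lower, and the share of all tested genes past it was not counted. Rab38, which with Rab32 builds lysosome-related organelles, went from 703 ± 26.1 to 301 ± 24.8 CPM (log2 fold change -1.22, SE 0.063, edgeR adjusted p = 7.12e-11). Hps6, a BLOC-2 subunit of the same route, went from 6.32 ± 0.320 to 2.86 ± 0.583 CPM (log2 fold change -1.14, SE 0.20, edgeR adjusted p = 0.000344). Bet1l, a SNARE of the Golgi, went from 35.3 ± 3.10 to 16.4 ± 0.977 CPM (log2 fold change -1.10, SE 0.092, edgeR adjusted p = 5.82e-08). All exocyst genes on the list were tested, and 1 was higher (Exoc3) and 1 lower (Exoc5), beside 40.0% of all tested genes called.

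Between IgE+BSA and Control 2 of the 77 were higher and 1 lower, or 3.90% against 3.27% of all tested genes. Rab38 rose from 459.8 ± 44.5 to 703 ± 26.1 CPM (log2 fold change 0.61, SE 0.11, edgeR adjusted p = 0.0313), Rab32 rose from 42.4 ± 5.27 to 66.5 ± 5.90 CPM (log2 fold change 0.65, SE 0.13, edgeR adjusted p = 0.0444), and Hps6 fell from 13.1 ± 2.41 to 6.32 ± 0.320 CPM (log2 fold change -1.05, SE 0.18, edgeR adjusted p = 0.0293). Without Control 1 the calls were 11 higher (14.3%, against 22.6% of all) and 23 lower (29.9%, against 22.4% of all), and Rab38 and Hps6 stood at 0.53 and -1.25 on the log2 scale. Leaving out any other library of this comparison left 0 calls, while 0.779% to 1.19% of all genes were called. Between IgE+BSA+Luteolin and Control 4 were lower and 0 higher by edgeR (5.19%, against 3.04% of all tested genes called), the lower ones being Hps6 (-2.19 on the log2 scale), Bet1l (-1.23), Vps18 (-0.75), a HOPS subunit, and Rab38 (-0.62). Without Control 1 there were 18 higher (23.4%, against 29.9% of all) and 23 lower (29.9%, against 30.1% of all). Leaving out any other library left 0 to 2 lower, while 0.0173% to 0.433% of all genes were called. Rab38 was thus higher than Control with stimulation and lower than Control with luteolin added, while Hps6 was lower than Control in both groups.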

How the data were processed

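BMMC RNA of 3 groups with 3 libraries each was sequenced from stranded mRNA libraries. Per the study's methods and the submitters' processing notes, reads were cleaned by HTStream and mapped to mm10 by STAR 2.7.0f. The values deposited by the authors are raw read counts for each Ensembl gene. The annotation release, the strand setting and the treatment of reads matching several places are not given in the sources used here. Libraries were grouped by their labels.

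Identifiers were matched to GENCODE M21 (GRCm38), which covered 47224 of 47643 rows. Genes with a median CPM above 1 over the 9 libraries were tested (11560 genes). The study states this cutoff, but the number of features it kept there was not reproduced here. The tests were run in R 4.3.3 by edgeR 4.0.16 (quasi-likelihood, TMM, 6 libraries per comparison, two-sided), with Benjamini-Hochberg adjustment over all tested genes and a threshold of 0.05. Fold changes, standard errors and 95% intervals are from this fit, and the intervals are not adjusted. DESeq2 1.42.0 and limma 3.58.1 served as alternatives, beside other scalings, filters, libraries in the fit, a replicate block and each library left out. The method was tested on simulated data. Levels between genes are CPM per kb of merged exon.

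The members and gene lists were chosen with earlier results of these data known. Named were a core list, the 8 members with the largest called change without overlap between groups in each comparison, and other exocytosis genes called with at least a 1.5-fold change. Genes that did not pass the filter were listed by name. Sytl1, Sytl2, Syt11, Vamp1, Snap29, Scamp3, Stx5a, Stx7, Stx8, Stx12, Stx18, Stxbp4, Stxbp6, Exoc3 and Exoc5 fall outside this rule and were chosen after their values were seen, as were the markers singled out. Alternatives for the list of other exocytosis genes were chosen after seeing the data. Promoters are from RefSeq (GRCm38.p6). Limits for a count of 0 use 3 counts per library and cover counting error only. Some genes are not reported here.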

Additional observations from a re-analysis of the deposited data

How the results depend on the processing

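Between IgE+BSA+Luteolin and IgE+BSA, Sytl3, Vamp2, Vamp3, Vamp5 and Stx3 stayed past the threshold in all 15 alternatives that kept the same threshold, and none of the 16 genes past it changed sign in any. Genes higher and lower were 6 and 10 with DESeq2, limma and DESeq2 size factors, 19 and 6 with library size alone, 18 and 6 with upper-quartile factors, 2 and 3 in the fit over all 9 libraries, and 1 and 1 with a 1.5-fold minimum added. Leaving out 1 library gave 3 to 9 higher and 7 to 12 lower, together 22.2% to 44.4% of the genes, while 28.0% to 44.0% of all genes were called in the same fits. For IgE+BSA against Control, where 0 passed, the counts were 3 and 2 with DESeq2 and in the fit over all 9 libraries (11.1%, against 10.6% and 9.56% of all genes). With library size alone they were 0 and 1 (2.22%, against 4.01%). With 1 library left out 0.779% to 45.0% of all genes were called, and 0 to 6 of the 45 were higher and 0 to 11 lower, the upper values without Control 1. For IgE+BSA+Luteolin against Control the counts were 2 and 3 with DESeq2 and in the fit over all 9 libraries (11.1%, against 11.9% and 10.8%). With 1 library left out 0.0173% to 60.0% of all genes were called, and 0 to 16 of the 45 were higher and 0 to 14 lower, again highest without Control 1. Without it 37.8% of the genes, against 45.0% of all, were called for IgE+BSA and 66.7%, against 60.0%, for IgE+BSA+Luteolin. The cause was not tested. The filter on low values kept 45 genes on the median CPM, 48 with CPM above 1 in any library and 52 on median counts.

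Of the 77 other exocytosis genes tested, IgE+BSA against Control gave 4 higher and 6 lower with DESeq2 (13.0%, against 10.6% of all genes). With DESeq2 size factors it gave 1 higher and 1 lower, beside 3.23% of all genes called, and with filterByExpr 1 higher. With library size alone it gave 0 higher and 2 lower, beside 4.01% of all genes called. With upper-quartile factors it gave 0 higher and 1 lower, beside 3.29% of all genes called. The fit over all 9 libraries gave 4 higher and 3 lower (9.09%, against 9.56%). With 1 library left out it gave 0 to 11 higher and 0 to 23 lower, beside 0.779% to 45.0% of all genes called. IgE+BSA+Luteolin against IgE+BSA gave 26 higher and 7 lower with library size alone (42.9%, against 48.7%), 18 higher and 10 lower with upper-quartile factors (36.4%, against 45.7%), 0 higher and 5 lower over all 9 libraries (6.49%, against 9.46%), and 2 to 9 higher and 11 to 15 lower with 1 library left out (18.2% to 31.2%, against 28.0% to 44.0%). IgE+BSA+Luteolin against Control gave 1 higher and 6 lower with DESeq2 and over all 9 libraries (9.09%, against 11.9% and 10.8%). With 1 library left out it gave 0 to 18 higher and 0 to 23 lower (0.00% to 53.2%, against 0.0173% to 60.0%).

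Shares not divided by exon length were, in Control, IgE+BSA and IgE+BSA+Luteolin, 38.6%, 35.1% and 44.6% for Vamp8, 28.2%, 29.0% and 22.5% for Vamp2, 88.7%, 91.1% and 86.6% for Rab27b and 93.1%, 96.2% and 94.9% for Rab3d.

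With replicate numbers entered as a block, 11 genes were higher and 10 lower between IgE+BSA+Luteolin and IgE+BSA (46.7%, against 48.3% of all genes). The genes gained there were Unc13d, Rab27a, Snap29, Syt11 and Stx8, all higher (edgeR adjusted p = 0.0235 to 0.0469). In both comparisons with Control 0 passed, beside 1.25% of all genes called for IgE+BSA and 1.83% for IgE+BSA+Luteolin. Of the other exocytosis genes the block gave 13 higher and 16 lower between the stimulated groups (37.7%), 0 higher and 0 lower for IgE+BSA against Control, and 2 lower for IgE+BSA+Luteolin against Control. Whether the numbers pair the samples was not settled, since the deviations of 3 libraries from their own mean depend on each other. The correlations of same-numbered deviations were -0.023, 0.178 and 0.287 between the stimulated groups. They were -0.0428, -0.261 and 0.245 between IgE+BSA and Control, and 0.177, -0.127 and 0.314 between IgE+BSA+Luteolin and Control. Some libraries correlated best with their own number and others did not.

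Control 2 had the lowest depth, with 9515004 counts, and genes with a median of 1 CPM or less were left out of the main test.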

Other observations

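Syt13, a synaptotagmin without the calcium-binding residues of the classical members, did not pass the filter and is named here after its values were seen. It had 0, 0 and 2 counts in Control, 11, 7 and 8 in IgE+BSA, and 4, 2 and 3 in IgE+BSA+Luteolin. It was not part of the main test, and no p is given at these counts. Its highest level was 0.497 CPM.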
